A study of Mus musculus with 6 samples.

Results

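Rgs16, Lgr6, Edil3, Ccbe1 and Msln are 5 of the 55401 genes counted in an RNA-Seq experiment on NIH3T3 cells, an immortalized line of mouse embryonic fibroblasts. They were chosen by their measured values, as the genes with the largest decreases under aurintricarboxylic acid (ATA) among those with a mean of at least 5 CPM, a count scaled to the size of its library, and all 5 passed the filter on low counts. The experiment compared cells carrying an empty vector and given the vehicle DMSO (EV, n = 2 libraries), cells stably expressing TAZ-CAMTA1 and given DMSO (TC, n = 1), and cells expressing TAZ-CAMTA1 and given 10 μM ATA (TC + ATA, n = 3). The treatment lasted 48 h in every group, and no library combined the empty vector with ATA. TAZ-CAMTA1 is the fusion protein of epithelioid hemangioendothelioma, and whether the TC cells were a clone or a pool is not given in the sources used here. Each library held between 58471484 and 74413193 counts.

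TAZ has no DNA-binding domain and acts on genes through TEAD transcription factors, and TAZ-CAMTA1 keeps the part of TAZ that binds TEADs. ATA was studied as a compound that separates TAZ from TEAD, so the comparisons ask how genes stand in TC cells against EV cells and where they stand once TC cells receive ATA. The 5 genes have separate roles. Rgs16 encodes a regulator of G protein signalling that speeds GTP hydrolysis by Gα subunits, Lgr6 encodes a receptor for R-spondins that strengthens WNT signalling, and Edil3 encodes a secreted matrix protein that binds integrins through an RGD motif. Ccbe1 encodes a secreted protein that promotes the proteolytic activation of VEGF-C by ADAMTS3 in lymphatic development. Msln encodes mesothelin, a surface protein of mesothelial cells that binds the mucin MUC16.

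The 5 genes fell into opposite patterns against the empty vector. Rgs16 and Lgr6 were low in EV, 6.85-fold and 6.98-fold higher in the TC library, and between these levels in TC + ATA. Edil3, Ccbe1 and Msln were highest in EV, lower in the TC library and lowest in TC + ATA. For Edil3, Ccbe1 and Msln the level in TC + ATA was therefore further from EV than the level in TC was, whereas for Rgs16 and Lgr6 it was nearer. The distance from EV was tested for Rgs16 and Msln and is a description for Lgr6, Edil3 and Ccbe1. The step from TC to TC + ATA, which chose the genes, is also given as a description.

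All 5 are protein-coding genes of the GENCODE M21 annotation on GRCm38, the build to which the reads were aligned. Rgs16 (ENSMUSG00000026475) lies on chromosome 1 from 153740349 to 153745468 on the plus strand, and Lgr6 (ENSMUSG00000042793) on the same chromosome from 134983301 to 135105276 on the minus strand, 18.6 Mb away. Edil3 (ENSMUSG00000034488) lies on chromosome 13 from 88821472 to 89323223, and Msln (ENSMUSG00000063011) on chromosome 17 from 25748613 to 25754378. Ccbe1 (ENSMUSG00000046318) is the longest after Edil3 and has 10831 exonic bases against 13677 for Edil3 and 2339 for Rgs16. The exons of Rgs16 overlap those of the antisense gene Gm28513 over 236 bases, and those of Ccbe1 overlap Gm15958 over 320 bases. These antisense genes held at most 2 and 23 counts in any library, and whether reads were counted by strand is not stated.

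Promoter sequences were at hand for Rgs16 and Lgr6 and are shown as the sequence next to the start of the members that were higher in TC than in EV. Each run gives the 250 bases before the RefSeq transcription start on GRCm38.p6, read 5′ to 3′ on the strand of the gene (chr1:153740103-153740352, plus strand, for Rgs16 and chr1:135105277-135105526, minus strand, for Lgr6). Capitals mark GC boxes (GGGCGG) and CCAAT boxes (CCAAT) on either strand.

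Rgs16 promoter: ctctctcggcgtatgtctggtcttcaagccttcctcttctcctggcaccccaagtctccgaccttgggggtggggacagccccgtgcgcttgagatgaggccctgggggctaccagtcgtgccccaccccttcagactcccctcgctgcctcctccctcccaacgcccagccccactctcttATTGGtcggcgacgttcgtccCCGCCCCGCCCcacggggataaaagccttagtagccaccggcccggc
Lgr6 promoter: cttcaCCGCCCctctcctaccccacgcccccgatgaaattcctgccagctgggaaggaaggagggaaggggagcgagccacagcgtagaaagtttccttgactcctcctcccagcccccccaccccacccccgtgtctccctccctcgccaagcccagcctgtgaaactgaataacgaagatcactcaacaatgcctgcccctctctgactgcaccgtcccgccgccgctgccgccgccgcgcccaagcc

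Both windows were rich in G and C, at 66.4% for Rgs16 and 65.2% for Lgr6 against a median of 52.4% over 32851 RefSeq promoter windows of the same length. The Rgs16 window held 2 overlapping GC boxes and 1 CCAAT box on the reverse strand, all within 68 bases of the start. The Lgr6 window held 1 GC box, from 245 to 240 bases before the start. A GC box was present in 32.7% of all windows and a CCAAT box in 33.8%. Neither window held the TEAD letters GGAATG (12.6% of all windows), the AP-1 letters TGANTCA (6.75%) or the TATA letters TATAAA (12.4%), on either strand. These matches describe letters in a short window only, and elements further away were not searched.

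**Figure D1:**
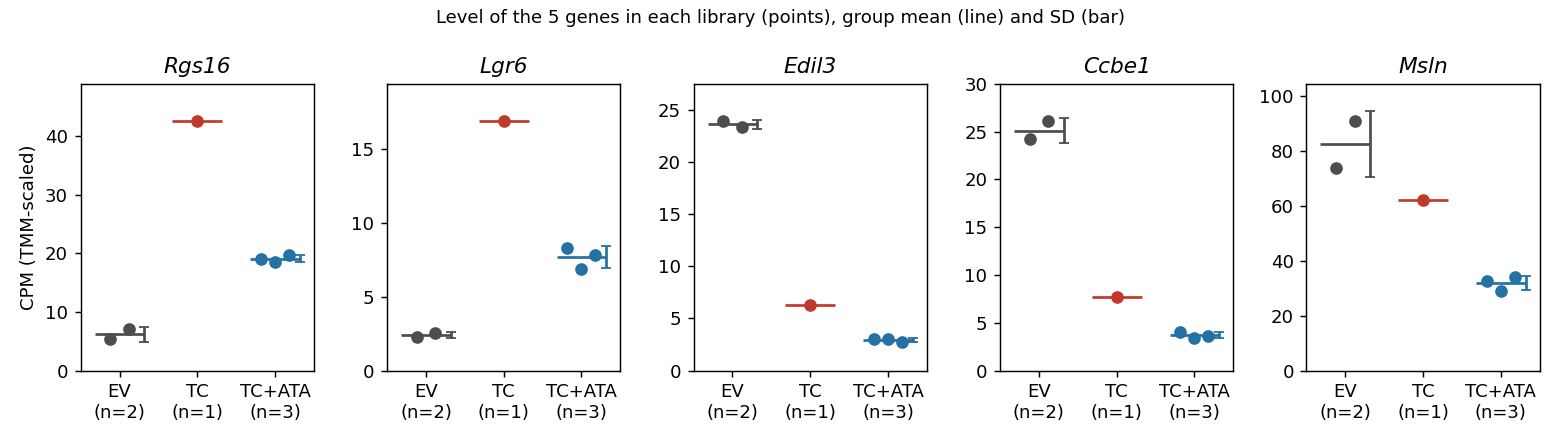
Level of Rgs16, Lgr6, Edil3, Ccbe1 and Msln in each of the 6 libraries, in CPM on a linear axis from 0, with 1 panel per gene. Points are libraries, horizontal lines are group means and bars are the SD. The TC library is the highest for Rgs16 and Lgr6 and lies between EV and TC + ATA for Edil3, Ccbe1 and Msln.

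Rgs16 belongs to the R4 group of RGS proteins, which limit signalling from receptors coupled to Gi and Gq. It had 398 and 543 counts in the EV libraries and 2957 in the TC library, and with ATA it had 1077, 1313 and 1369. Scaled to library totals after TMM normalization, these were 5.32 and 7.12 CPM in EV, 42.6 CPM in TC and 19.0, 18.5 and 19.7 CPM in TC + ATA. The TC + ATA libraries were much closer to each other (coefficient of variation 3.09%) than the EV libraries were (20.5%). In edgeR's quasi-likelihood test over all 18539 genes that passed the filter, Rgs16 was higher in TC than in EV by a log2 fold change (log2FC) of 2.77 (standard error, SE, 0.15, 95% interval 2.44 to 3.11, adjusted p = 2.56e-06). The adjusted p is the Benjamini-Hochberg value over those genes, and a gene at or below 0.05 is termed called. Rgs16 was also higher in TC + ATA than in EV, by 1.61 (SE 0.12, 95% interval 1.34 to 1.89, adjusted p = 1.2e-05 from edgeR).

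Lgr6 had a course like that of Rgs16. It had 2.27 and 2.57 CPM in EV, 16.9 CPM in TC and 8.32, 6.87 and 7.85 CPM in TC + ATA. Its lowest library, an EV library, held 170 counts. The log2FC was 2.80 in TC against EV (SE 0.16, 95% interval 2.44 to 3.16) and 1.66 in TC + ATA against EV (SE 0.13, 95% interval 1.36 to 1.97). Lgr6 reached the limit of 5 CPM only through the TC and TC + ATA libraries, with a mean of 9.99 CPM there against 2.42 CPM in EV. A high level in those libraries was thus part of its choice, and its values against EV are given as a description. In TC against EV, 404 of the 18539 genes tested had a larger log2FC than Rgs16, and 394 a larger one than Lgr6. Among the 10424 tested genes with a mean of at least 5 CPM, these numbers were 42 and 39. The choice favoured genes that read high in the single TC library, so nothing is read from these places.

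Edil3, also known as DEL-1, went the other way. It had 23.9 and 23.3 CPM in EV, 6.31 CPM in TC and 3.03, 3.05 and 2.76 CPM in TC + ATA. The EV libraries were nearly equal, and the TC + ATA libraries stood at 12.5% of the EV mean on average, against 26.7% in the TC library. The log2FC was −1.91 in TC against EV (SE 0.13, 95% interval −2.21 to −1.60) and −3.0 in TC + ATA against EV (SE 0.09, 95% interval −3.22 to −2.79). Over the TC and TC + ATA libraries alone the mean was 3.79 CPM, so Edil3 reached the limit of 5 CPM only through its EV level. A high EV level was thus part of its choice, and its values against EV are given as a description.

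Ccbe1 had almost the same course as Edil3. It had 24.2 and 26.1 CPM in EV, 7.69 CPM in TC and 4.06, 3.41 and 3.65 CPM in TC + ATA, the last at 14.8% of the EV mean on average. Its lowest library, in TC + ATA, held 231 counts. The log2FC was −1.71 in TC against EV (SE 0.14, 95% interval −2.03 to −1.38) and −2.76 in TC + ATA against EV (SE 0.10, 95% interval −2.99 to −2.53). Ccbe1 too reached the limit only through EV, with a mean of 4.71 CPM over the TC and TC + ATA libraries, and its values against EV are likewise a description.

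Msln had the highest level of the 5 genes in every group, also per kilobase of exon. It had 74 and 91.0 CPM in EV, 62.1 CPM in TC and 32.8, 29.0 and 34.0 CPM in TC + ATA. The TC library lay below both EV libraries, but the EV libraries were themselves apart (82.5 ± 12 CPM, SD, n = 2). The log2FC of −0.41 in TC against EV did not pass the limit after adjustment (SE 0.14, adjusted p = 0.0533 from edgeR), although its own 95% interval ran from −0.72 to −0.10. This call turned on the setting, since Msln passed with DESeq2 (adjusted p = 0.0267), with scaling by library total (adjusted p = 0.0498 from edgeR), without a filter on low counts (adjusted p = 0.00736 from edgeR) and without EV replicate 1 (adjusted p = 0.00056 from edgeR). Msln was lower in TC + ATA than in EV by a log2FC of −1.37 (SE 0.10, 95% interval −1.59 to −1.14, adjusted p = 9.52e-06 from edgeR).

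**Figure D2:**
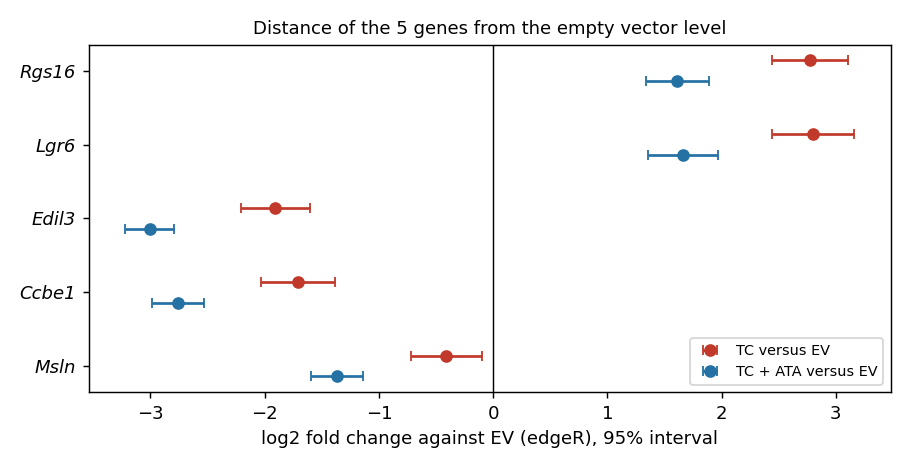
Log2FC of the 5 genes against EV, for the TC library (red) and the TC + ATA libraries (blue), with 95% intervals from edgeR. Rgs16 and Lgr6 lie to the right of 0 in both comparisons, with TC + ATA nearer to 0 (1.61 and 1.66), whereas Edil3, Ccbe1 and Msln lie to the left, with TC + ATA further from 0 (−3.0, −2.76 and −1.37).

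In TC against EV, Rgs16 was called higher, where 14.8% of all genes tested were called higher. Msln was not called in that comparison, where 13.2% were called lower. With the additional limit of 2 on the absolute log2FC, which the study used for this comparison, Rgs16 was still called, in a class that held 2.36% of the genes tested. Msln did not pass that limit on the lower side, where 1.27% of the genes did. In TC + ATA against EV, Rgs16 was called higher (18.0% of all genes) and Msln lower (18.6% of all genes). The comparison of TC with EV contains the TC library and that of TC + ATA with EV contains the TC + ATA libraries, all of which took part in choosing the genes. That choice favours genes that read high in the TC library and low in the TC + ATA libraries. Lgr6, Edil3 and Ccbe1 are not counted here. Edil3 and Ccbe1 needed their EV level, and Lgr6 its level outside EV, for the limit of 5 CPM. As bulk counts, none of these values tells fewer expressing cells from less RNA per cell.

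Per kilobase of exon, Msln had the highest level of the 5 genes in EV, at 24.2 and 29.7 CPM per kb. Rgs16 (2.27 and 3.04 CPM per kb) and Ccbe1 (2.23 and 2.41 CPM per kb) overlapped there, and Edil3 (1.75 and 1.71 CPM per kb) and Lgr6 (0.332 and 0.375 CPM per kb) followed. In the TC library Msln and Rgs16 were close, at 20.3 and 18.2 CPM per kb, and Lgr6 (2.47 CPM per kb) stood above Ccbe1 (0.710 CPM per kb) and Edil3 (0.461 CPM per kb). With ATA the order was the same as in TC, from 10.4 CPM per kb for Msln and 8.15 for Rgs16 through 1.12 for Lgr6 to 0.343 for Ccbe1 and 0.215 for Edil3, as group means. No neighbours in that order overlapped over the 3 TC + ATA libraries.

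The step from TC to TC + ATA was of similar size in all 5 genes. The mean of the TC + ATA libraries was 44.7% of the TC library for Rgs16, 45.5% for Lgr6, 46.7% for Edil3, 48.2% for Ccbe1 and 51.5% for Msln, and the log2FCs were −1.16, −1.14, −1.10, −1.05 and −0.96. These values chose the genes and carry no test. Among all genes tested, 29 (0.156%) passed as lower with ATA than in TC and 79 (0.426%) as higher, and nothing is read from the presence of the 5 genes among the former. TC had 1 library, so the step has no replicate check on the TC side. Leaving out 1 library moved these counts of calls, to between 3 and 12 lower and 7 and 28 higher without a TC + ATA library, and to between 608 and 762 lower and 707 and 808 higher without an EV library. For Rgs16 the excess over EV in TC + ATA was 35.3% of the excess in TC, and for Lgr6 it was 36.3%.

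The limits of the choice were close to other genes. Of the 29 genes called lower, 20 had a mean of at least 5 CPM. The ranking also asked that every TC + ATA library lie below the TC library, which held for all 20. Msln, the last gene inside, was followed by Crabp1 (log2FC −0.82, mean 98.3 CPM), a retinoic acid binding protein, and Ercc1 (−0.72, mean 94.6 CPM), a DNA repair protein. The other 9 genes lay below 5 CPM on average and fell further. Gm4841 (−6.37, mean 1.67 CPM) and Iigp1 (−5.06, mean 1.35 CPM), an interferon-inducible GTPase, had the largest decreases among them. Sema7a, named after its values were seen, was just under the limit on the mean, at 4.80 CPM with a log2FC of −1.82. Crabp1 resembled Edil3 against EV, with 254 and 210 CPM in EV, 46.4 CPM in TC and 25.7, 26.5 and 26.6 CPM in TC + ATA. Ercc1 was highest in the TC library and lower in TC + ATA than in EV, with 107 and 103 CPM in EV, 127 CPM in TC and 77.6, 76.2 and 77.2 CPM in TC + ATA.

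**Figure D3:**
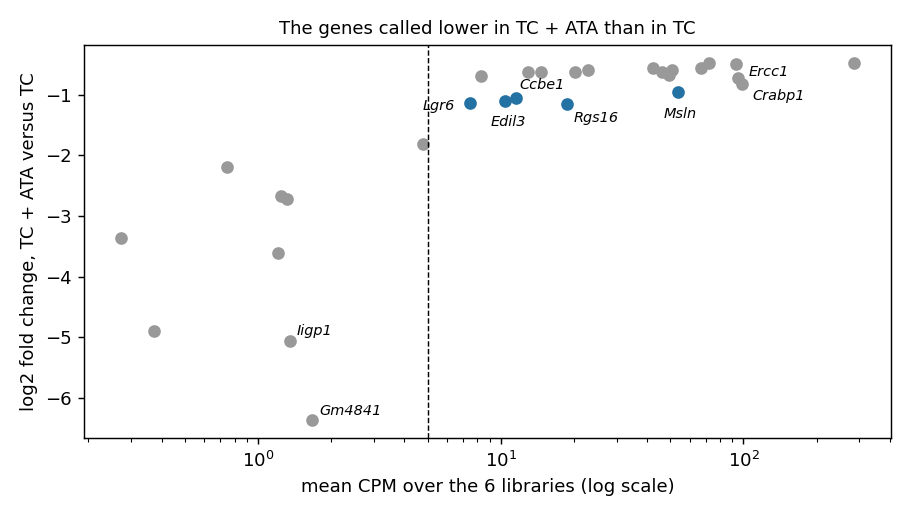
The 29 genes called lower in TC + ATA than in TC, by their mean CPM over the 6 libraries (log axis) and their log2FC. Blue points are Rgs16, Lgr6, Edil3, Ccbe1 and Msln, grey points are the other genes, and the dashed line is the limit of 5 CPM. The 5 genes are the lowest points to the right of the line, between −1.16 and −0.96, and genes to its left reach −6.37.

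The likeness of patterns was measured as the root mean square difference of log2 CPM over the 6 libraries, after each gene was centred on its own mean, among the 10424 genes with a mean of at least 5 CPM. Lgr6 was the gene most like Rgs16 and Rgs16 the gene most like Lgr6, with a difference of 0.10. Edil3 and Ccbe1 were likewise each other's nearest gene, with a difference of 0.14. The rule fixed the step from TC to TC + ATA in both pairs. For Edil3 and Ccbe1 it also called for a high level in EV, and for Lgr6 for a high level outside EV. Msln was 0.77 from Edil3 and 0.65 from Ccbe1, and Rgs16 was 2.19 from Edil3. The other genes named for their likeness were picked over these same 6 libraries. Their values and calls therefore describe the shared pattern and lend it no support.

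After each other, both Rgs16 and Lgr6 were most like Kcnab3, a potassium channel β subunit, and Plcxd2. Kcnab3 (0.23 from Rgs16 and 0.21 from Lgr6) had 2.19 and 2.49 CPM in EV, 13.3 CPM in TC and 8.68, 7.60 and 10.1 CPM in TC + ATA. Plcxd2 (0.27 and 0.26) had 4.39 and 4.64 CPM in EV, 21.1 CPM in TC and between 14.7 and 15.4 CPM in TC + ATA. Both were higher in TC than in EV, as the choice by likeness favoured, with log2FCs of 2.5 and 2.22. Neither passed the test in TC + ATA against TC, with log2FCs of −0.60 and −0.47 (adjusted p = 0.225 and 0.105 from edgeR).

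Next to Ccbe1, the genes most like Edil3 were Crabp1 (0.16) and Hlf (0.20), a transcription factor of the PAR bZIP group. Hlf had 11.7 and 12.9 CPM in EV, 2.71 CPM in TC and 1.14, 1.75 and 1.35 CPM in TC + ATA. Next to Edil3, the genes most like Ccbe1 were Dkk2 (0.18), a secreted WNT modulator, and Kank3 (0.26). Dkk2 had 28.4 and 35.3 CPM in EV, 8.17 CPM in TC and between 5.02 and 5.95 CPM in TC + ATA. Crabp1, Hlf, Dkk2 and Kank3 were all lower in TC than in EV, as the choice by likeness favoured, with log2FCs of −2.32, −2.18, −1.96 and −1.43. In TC + ATA against TC, Crabp1 was called lower (adjusted p = 0.0127 from edgeR), and Hlf, Dkk2 and Kank3 had log2FCs of −0.93, −0.60 and −0.80 that did not pass (adjusted p = 0.144, 0.173 and 0.0698 from edgeR).

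The genes most like Msln were Wincr1 (0.19), a noncoding RNA, Selenoh (0.22), a selenoprotein, and B3gntl1 (0.22). Selenoh had 69.6 and 62.1 CPM in EV, 49.4 CPM in TC and 31.8, 31.6 and 32.6 CPM in TC + ATA. Its log2FCs were −0.41 in TC against EV and −0.63 in TC + ATA against TC. In TC against EV the log2FC was −0.49 for Wincr1 and −0.85 for B3gntl1, and in TC + ATA against TC neither was called.

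The genes that act with the 5 or belong to their families were examined in 5 lists with 81 genes in all, of which 59 passed the filter on low counts. In TC against EV, 14 of these were called higher and 13 lower, beside 14.8% and 13.2% of all genes tested. In TC + ATA against EV the counts were 18 and 12, beside 18.0% and 18.6% of all genes. In TC + ATA against TC, 2 were called higher and none lower, beside 0.426% and 0.156% of all genes, and at most 2 were called lower in any other setting tried. The same shares apply to the counts given for each list, and nothing is read from those counts alone. The median log2FC of all genes tested was −0.03, −0.01 and 0.00 in these comparisons. Rgs1 and Notum had no count in the TC library, and setting them at the bound given by 3 counts left every median of their lists as given.

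Of the R4 relatives of Rgs16, Rgs2 and Rgs4 were called lower in TC than in EV, opposite to Rgs16. Rgs2, a regulator with a preference for Gq, had 102 and 104 CPM in EV, 35.8 CPM in TC and 31.0, 34.8 and 28.0 CPM in TC + ATA. Its log2FC was −1.52 in TC against EV (adjusted p = 3.27e-05 from edgeR) and −1.72 in TC + ATA against EV (adjusted p = 1.07e-06 from edgeR). Rgs4 had 10.7 and 9.13 CPM in EV, 4.60 CPM in TC and 8.08, 8.41 and 8.71 CPM in TC + ATA. It was called higher in TC + ATA than in TC, by a log2FC of 0.87 (SE 0.15, adjusted p = 0.0479 from edgeR), opposite to the step that chose Rgs16. Leaving out any 1 of the TC + ATA libraries ended this call.

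Rgs3 (17.6 to 20.8 CPM) and Rgs5 (1.23 to 2.22 CPM) did not pass the test in any comparison. Rgs1 reached at most 0.931 CPM, Rgs8 0.115 CPM, Rgs18 0.0282 CPM and Rgs21 0.0535 CPM, and Rgs13 had no count in any library, which allows a level of up to 0.0513 CPM in the smallest library (3 counts of its total). Among the Gα subunits on which RGS proteins act, Gna13 and Gnai2 were called higher in TC than in EV, by 0.41 and 0.36 on the log2 scale (adjusted p = 0.00553 and 0.0399 from edgeR). In this list 21 of 28 genes were tested, with 2 higher and 3 lower in TC against EV and a median log2FC of 0.02. In TC + ATA against EV 2 were higher and 4 lower (median −0.02), and in TC + ATA against TC Rgs4 alone was called (median −0.02).

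Lgr4, a sister receptor of Lgr6 for R-spondins, was also higher in TC, but it had no such step with ATA. Lgr4 had 19.9 and 19.7 CPM in EV, 48.6 CPM in TC and 51.6, 52.8 and 49.8 CPM in TC + ATA. Its log2FC was 1.30 in TC against EV (SE 0.08, adjusted p = 6.78e-06 from edgeR) and 0.08 in TC + ATA against TC (95% interval −0.10 to 0.26, adjusted p = 0.804 from edgeR). Per kilobase of exon, Lgr4 stood above Lgr6 in every group, at 8.26 against 2.47 CPM per kb in TC. The third receptor, Lgr5, was at or below 0.0564 CPM in every library, and each of the 4 R-spondin ligands was at or below 0.0880 CPM. In this list 10 of 18 genes were tested, and Lgr4 was the 1 gene called higher in TC against EV, while Lrp5, a WNT coreceptor, and Ctnnb1, which encodes β-catenin, were called lower, by log2FCs of −0.43 and −0.30 (adjusted p = 0.0174 and 0.0469 from edgeR). Lgr4 and Znrf3 were higher and Lrp5 and Ctnnb1 lower in TC + ATA against EV, and in TC + ATA against TC none was called. The medians were 0.05, 0.09 and 0.07 in the 3 comparisons. Axin2, a WNT feedback target, was between 0.129 and 0.348 CPM in all libraries.

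Mfge8, the closest relative of Edil3 and likewise a secreted RGD protein, was higher where Edil3 was lower. It had 309 and 238 CPM in EV, 546 CPM in TC and 535, 510 and 489 CPM in TC + ATA, with log2FCs of 1.00 in TC against EV (adjusted p = 0.000749 from edgeR) and −0.09 in TC + ATA against TC (95% interval −0.40 to 0.21, adjusted p = 0.881 from edgeR). Among the integrin chains, Itgb8 and Itgav were higher in TC than in EV, by 1.68 and 1.08 on the log2 scale, and Itga8, Itgb5 and Itgb3 had −1.87, −0.99 and −0.70. All 12 genes of this list were tested, with 4 higher and 5 lower in TC against EV (median 0.33), 5 higher and 3 lower in TC + ATA against EV (median 0.46) and none called in TC + ATA against TC (median 0.16).

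The partners of Ccbe1 in VEGF-C activation did not share its course. Vegfc was called higher in TC than in EV by a log2FC of 0.67 (adjusted p = 0.0134 from edgeR), with 4.57 and 4.33 CPM in EV, 7.07 CPM in TC and 6.41, 6.79 and 7.64 CPM in TC + ATA. Vegfd, its paralog, and Nrp2, a coreceptor for these ligands, were also higher, by 0.53 and 0.74. Adamts3 was at or below 0.0176 CPM in every library, whereas the related proteases Adamts14 and Adamts2 were present, with log2FCs of 0.69 and −1.38 in TC against EV. Fat4, an atypical cadherin that like Ccbe1 is mutated in Hennekam lymphangiectasia, had 9.63 and 11.1 CPM in EV, 2.35 CPM in TC and 5.63, 6.86 and 5.72 CPM in TC + ATA. It was lower in TC than in EV by −2.14 (adjusted p = 6.46e-05 from edgeR), as Ccbe1 was. It was higher in TC + ATA than in TC by 1.37 (SE 0.19, adjusted p = 0.018 from edgeR), opposite to the step that chose Ccbe1, and this call also ended when any 1 of the TC + ATA libraries was left out. In this list 9 of 12 genes were tested, with 5 higher and 2 lower in TC against EV (median 0.53), 6 higher and 2 lower in TC + ATA against EV (median 0.44) and Fat4 alone called in TC + ATA against TC (median −0.03). The lymphatic endothelial markers Prox1, Lyve1 and Flt4 together came to at most 0.267 CPM.

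Muc16, the binding partner of mesothelin, had no count in any library, and the mesothelin relatives Mslnl, Strc and Otoa were at or below 0.446, 0.0352 and 0.282 CPM. Among genes of mesothelial cells, Bnc1, a zinc finger transcription factor, had a course like that of Msln, with 39.6 and 40.8 CPM in EV, 21.5 CPM in TC and 13.8, 16.5 and 15.7 CPM in TC + ATA. It was called lower in TC than in EV (log2FC −0.90, adjusted p = 0.000606 from edgeR) but not in TC + ATA against TC (−0.49, adjusted p = 0.122 from edgeR). Upk3b, a uroplakin, went from 2 and 5 counts in the EV libraries to 125 in TC and 114, 127 and 121 in TC + ATA (log2FC 5.23 in TC against EV, adjusted p = 3.78e-05 from edgeR, with few counts behind the EV level). The 7 mesothelial markers, of which 2 had a mean of at least 1 CPM, summed to 40.2 and 41.2 CPM in EV, 24.6 CPM in TC and 17.2 to 20.1 CPM in TC + ATA. The sum fell through Bnc1 alone, and its part in the result for Msln was not tested. The other markers were low. Wt1, a transcription factor of the mesothelium, had a mean of 0.0463 CPM in EV, 0.259 CPM in TC and 0.524 CPM in TC + ATA and was called higher against EV in both. Krt19 had 0.359, 0.749 and 0.696 CPM and Upk1b 0.0267, 0.317 and 0.338 CPM in the same order, and Lrrn4 and Calb2 did not pass the filter on low counts. In this list 7 of 11 genes were tested, with 2 higher and 1 lower in TC against EV (median 1.06), 3 higher and 1 lower in TC + ATA against EV (median 0.96) and none called in TC + ATA against TC (median 0.11).

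**Figure D4:**
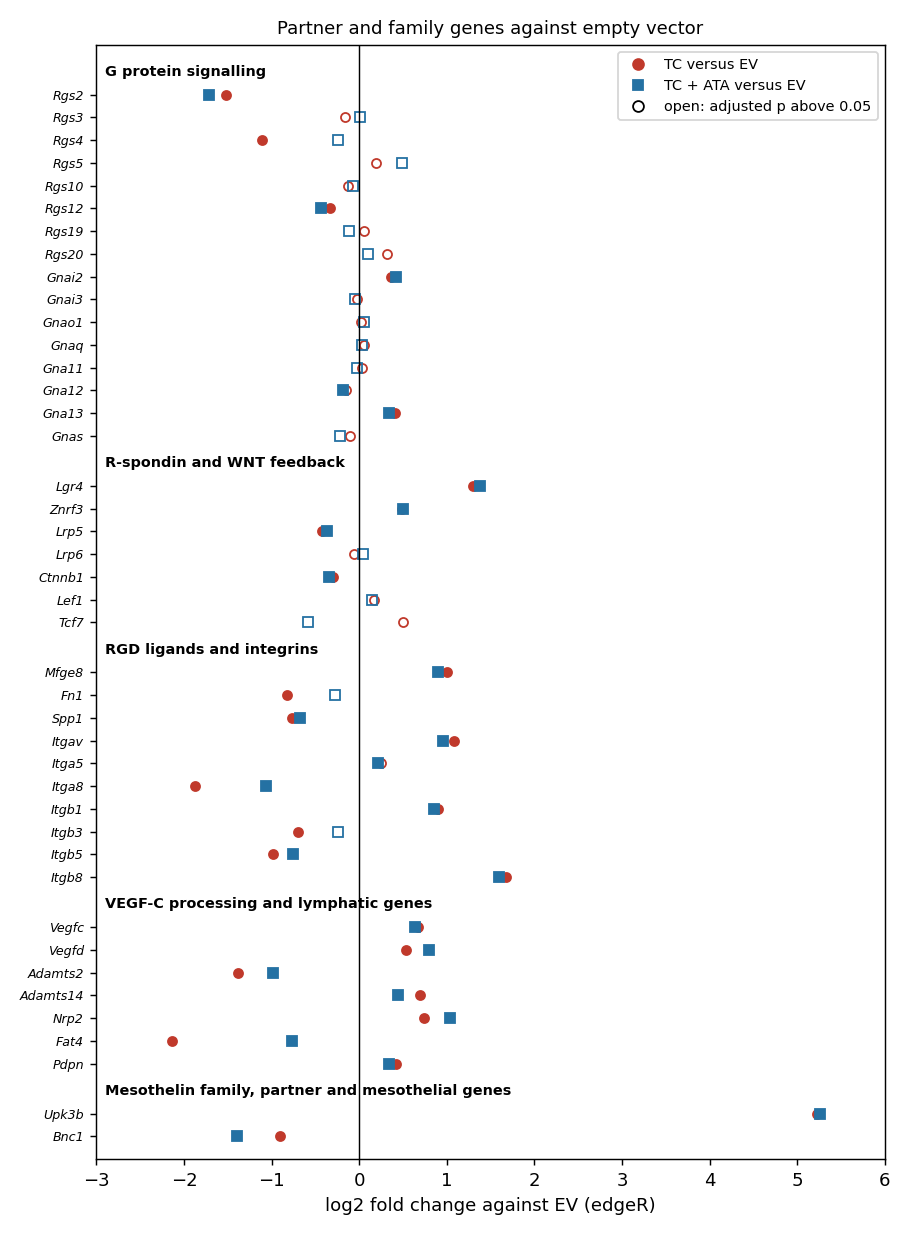
Log2FC against EV of the genes of the 5 lists with a mean of at least 1 CPM, for TC (red circles) and TC + ATA (blue squares). Filled symbols passed an adjusted p of 0.05 in edgeR and open symbols did not. Lgr4, Mfge8, Itgav and Itgb8 have both symbols at nearly the same place to the right of 0, and Fat4, Itga8 and Rgs4 have the TC + ATA symbol nearer to 0 than the TC symbol.

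The identity of the cells was checked with marker lists. All 10 fibroblast markers had a mean above 1 CPM, and their sum lay between 14700 and 19400 CPM in every library. Single markers moved in both directions beneath that sum. In EV, TC and TC + ATA, Thy1 had means of 193, 69.6 and 82.1 CPM and Pdgfra 413, 180 and 177 CPM. Col1a1 had 3020, 4360 and 4030 CPM and Vim 3110, 4850 and 4200 CPM. The 7 epithelial markers summed to at most 3.93 CPM, the 6 endothelial markers to at most 3.33 CPM and the 6 immune markers to at most 9.66 CPM. The labels do not say that the libraries of a group came from separate cultures, so the p-values measure the spread between these libraries, which may be technical.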

How the data were processed

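Poly(A) RNA of 6 NIH3T3 libraries was sequenced in paired-end mode. The authors used HISAT2 (version 2.2.1 per the labels) in Galaxy to align reads to GRCm38.p6 and featureCounts to count them per gene, and the deposited values are raw counts without normalization. The annotation release and the handling of strand and of multiply mapped reads are not given in the sources used here. Of the 55401 gene identifiers, 55141 were in GENCODE M21, which gave symbols, positions and exonic lengths.

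Counts were analysed in R 4.3.3 with edgeR 4.0.16 (TMM, filterByExpr, glmQLFit and glmQLFTest on all 6 libraries, 3 residual degrees of freedom), with Benjamini-Hochberg adjustment over the 18539 genes tested and a limit of 0.05. CPM are counts scaled to TMM library sizes. Log2 CPM for likeness used a prior count of 2. Standard errors and 95% intervals came from the F statistic. DESeq2 1.42.0, other scalings and filters, the compared groups alone, a replicate block, and leaving out each replicate of EV or of TC + ATA, were the alternatives.

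The 5 genes and the lists were chosen with earlier results of these data known. Named besides the 5 genes were the next 2 in the ranking and the 2 largest decreases below 5 CPM, the 3 genes most like each, the closest relatives, and the called list genes of largest change at a mean of at least 1 CPM. Promoter windows came from RefSeq (GRCm38.p6), which matched Rgs16 and Lgr6 among the genes looked up. The motifs, and the other genes that illustrate a list, were chosen after expression values were seen.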

Additional observations from a re-analysis of the deposited data

How the results depend on the processing

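Over 13 alternatives, the log2 fold changes of the 5 genes kept their direction in both comparisons with EV. They also did in TC + ATA versus TC, where the choice had set the direction. The calls of Rgs16 against EV held in these alternatives, as did that of Msln in TC + ATA versus EV. These alternatives reuse TC or TC + ATA libraries that took part in choosing the genes, so they lend the calls no separate support. For Lgr6, Edil3 and Ccbe1 the kept direction against EV is a description, since it was part of their choice. Msln in TC versus EV ranged from −0.56 to −0.25 and passed in 4 of the 13 alternatives, as given above. Without EV replicate 2 it was −0.25 (adjusted p = 0.052 from edgeR). In TC + ATA versus TC, Rgs16 was −1.27 with the replicate block.

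Calls in TC + ATA versus TC moved with the setting. Those of the lists (2 higher, 0 lower) came to 1 higher with upper quartile scaling or a filter of 1 CPM in 2 libraries, to 5 higher and 1 lower without a low-count filter, to 4 higher and 1 lower with DESeq2, to 9 higher and 2 lower with the compared groups only, and to 0 higher with the replicate block. Leaving out 1 replicate gave 0 to 9 higher and 0 to 2 lower. Where a group had 1 library, it was assumed to vary like the others. The genes called over the whole table in TC + ATA versus TC came to 633 lower and 795 higher with the compared groups only, against 84 and 236 with DESeq2 and 8 and 32 with the replicate block.

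EV and TC + ATA share the numbers 1 and 2, and no source says that a number marks a shared batch. The deviations of same-numbered libraries correlated at −0.029 and −0.0861 across genes, so the numbers were not taken as pairs. The block ended no call of Rgs16 or Msln against EV.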
